A study of Mus musculus with 60 samples.

Results

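Glucocorticoids are the adrenal hormones of the stress response, corticosterone in the mouse. A set of 7 genes that respond to them was followed through whole blood RNA sequencing of 60 mice: Nr3c1, which encodes the glucocorticoid receptor, and the receptor's targets Fkbp5, Tsc22d3, Zbtb16, Klf9, Sgk1 and Txnip. They were chosen by gene symbol as genes known to respond to the hormone, were found by identifier in the count tables among 49315 genes, and all 7 were measured in every mouse. The mice were male CD2F1 animals, 5 to 6 weeks old at purchase, in 10 groups of 6, and each mouse was bled once under isoflurane from the inferior vena cava. BIO 300, an oral powder of synthetic genistein in an amorphous solid dispersion, or its vehicle of water, methylcellulose and polyvinylpyrrolidone was given by gavage BID for 6 days. Vehicle, 50, 100 and 200 mg/kg groups were bled on Day 0, which fell 24 h past the final gavage, and separate vehicle, 50, 100 and 200 mg/kg groups on Day 1, at 48 h. A vehicle group and a 200 mg/kg group received total-body irradiation (TBI) of 9.2 Gy from cobalt-60 on Day 0 and were bled on Day 1, 24 h after exposure. Every mouse had thus been handled, gavaged and anesthetized, no group was left without gavage, and the clock time of the bleeds was not stated. The irradiated mice were also held in boxes and moved to the irradiator, and no sham exposure of other groups was described. Irradiation and this confinement cannot be told apart in these data. No group received a glucocorticoid and no hormone level is among these data, so the genes were read without a positive control for the hormone.

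The glucocorticoid receptor waits in the cytoplasm in a complex with HSP90 chaperones and immunophilins, enters the nucleus when the hormone binds, and activates genes through DNA elements built from a pair of inverted half-sites. In blood the hormone is known for lowering circulating lymphocytes and raising circulating neutrophils. Fkbp5 encodes an HSP90-bound immunophilin that lowers the receptor's affinity for the hormone. Tsc22d3 encodes the leucine zipper protein GILZ, which restrains inflammatory transcription factors. Zbtb16 encodes the zinc finger factor PLZF of innate-like lymphocytes and early blood progenitors. Klf9 encodes a Krüppel-like repressor, Sgk1 a kinase that regulates ion channels, and Txnip a thioredoxin-binding arrestin that lowers glucose uptake. These targets also answer to other signals.

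On the GRCm38 build the protein-coding members lie at chr17:28399094-28517527 on the minus strand for Fkbp5, chrX:140539528-140600659 minus for Tsc22d3, chr9:48654297-48836222 minus for Zbtb16, chr19:23141226-23168134 plus for Klf9, chr10:21882184-21999903 plus for Sgk1 and chr3:96557957-96561883 plus for Txnip. The coordinates of Nr3c1 are not given here. Fkbp5 overlaps short annotated genes on both strands (AC154912.5, AC154912.3, AC154912.1 and Gm22146) and Txnip overlaps Gm15441 on the opposite strand, and the strand setting of the counting was not stated, so reads in the shared stretches could not be assigned with certainty.

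RefSeq promoter windows of 300 bases (250 before and 50 after a start site, GRCm38.p6) were matched for 5 of the 7 genes. They were searched on both strands for the core of the glucocorticoid response element, GNACANNNTGTNC, which occurred in 156 of 32851 promoters (0.475%), and for the half-site TGTTCT, which occurred in 19.0%. A core was found in the Txnip window, 172 bases before the start, and in 1 of the 6 Sgk1 windows, 188 bases before that start and 964 bases before the last Sgk1 start. The 250 bases upstream of both starts are printed because they hold the only cores among the 12 windows of the members, with the core in capitals. The first is chr3:96557707-96557956 (plus strand, overlapping an annotated exon) and the second chr10:21993640-21993889 (plus strand, overlapping none).
Txnip: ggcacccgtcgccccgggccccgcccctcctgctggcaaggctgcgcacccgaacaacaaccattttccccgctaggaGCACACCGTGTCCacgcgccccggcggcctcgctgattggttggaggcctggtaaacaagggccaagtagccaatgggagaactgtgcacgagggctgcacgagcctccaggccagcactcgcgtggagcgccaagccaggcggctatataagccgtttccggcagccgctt
Sgk1: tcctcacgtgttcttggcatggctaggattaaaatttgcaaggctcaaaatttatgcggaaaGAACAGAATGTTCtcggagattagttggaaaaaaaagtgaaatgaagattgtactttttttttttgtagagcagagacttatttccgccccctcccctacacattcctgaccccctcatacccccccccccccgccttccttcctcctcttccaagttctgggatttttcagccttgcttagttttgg
The Sgk1 core is GAACAGAATGTTC, and a half-site on each strand overlaps it, each reaching 1 base past an end of the core. The Txnip core is GCACACCGTGTCC. The single windows of Fkbp5 and Klf9 and the 3 windows of Tsc22d3 held no core. Expression from single start sites was not separable in these gene counts.

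Libraries held 15099415 to 45589415 counts. Levels are CPM, a gene's count relative to the library total, with totals scaled by the trimmed mean of M values (TMM), whose factors ranged from 0.415 to 2.02. A gene passed the test at an adjusted p under 0.05 in edgeR's quasi-likelihood test, Benjamini-Hochberg adjusted over all genes tested, and all adjusted p-values below are from that fit unless another tool is named. Groups overlapped where their ranges met, and the share of all genes without overlap was not counted for pairs of groups. On Day 1 at 100 and 200 mg/kg the composition of the blood RNA differed from vehicle: summed platelet markers were 16050 to 36870 CPM at 100 mg/kg and 15590 to 26990 CPM at 200 mg/kg against 2085 to 4233 CPM, summed T cell markers were 70.8 to 150 CPM and 42.7 to 181 CPM against 334 to 416 CPM, and Gm26917 took 0.134 to 0.454% and 0.0562 to 1.46% of counts against 5.32 to 8.77%. The median log2 fold change of all genes there was -0.38 and -0.48 with TMM, -1.76 and -1.96 when libraries were scaled by total counts, and -0.50 and -0.74 when scaled by 10 pan-leukocyte genes, so changes are also given relative to these medians. A change of scaling moves the genes of a fit nearly alike. Subtracting the median of that fit removes this shift, so likeness of such values across scalings is no test of the scaling. The medians also depended on the low-count filter. With TMM they were -0.18 and -0.25 with edgeR's filterByExpr, and -0.55 and -0.70 without a filter. Whole blood was recognizable in every mouse, with summed erythroid markers of 18480 to 624300 CPM. In 10 mice at least 10 of 16 hepatocyte genes exceeded 10 CPM, with hepatocyte sums of 1105 to 38360 CPM, and they are called hepatocyte-transcript mice below. In bulk blood, fewer cells of a type and less RNA per cell cannot be told apart.

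Over the 60 mice, Tsc22d3 and Txnip were the most abundant members, and Klf9, Fkbp5 and Zbtb16 the least. The median level per kilobase of exon was 73.3 CPM for Txnip, 57.4 for Tsc22d3, 11.4 for Nr3c1, 5.10 for Sgk1, 1.26 for Zbtb16, 1.17 for Fkbp5 and 0.730 for Klf9. The highest group mean was 7.18 times the lowest for Klf9, 6.43 times for Zbtb16, 3.09 times for Txnip, 3.07 times for Sgk1, 2.64 times for Fkbp5, 2.23 times for Nr3c1 and 2.15 times for Tsc22d3. The place of Klf9 rested on hepatocyte-transcript mice, without which its group means ran from 2.44 to 6.92 CPM and those of Zbtb16 from 4.47 to 26.6 CPM. The highest mean was in an irradiated group for every member, vehicle TBI for Nr3c1, Klf9 and Sgk1 and 200 mg/kg TBI for the other 4. Without hepatocyte-transcript mice Klf9 was also highest at 200 mg/kg TBI, at 6.92 CPM against 5.53 CPM in vehicle TBI mice. The lowest was at 200 mg/kg on Day 1 for Nr3c1, Sgk1 and Txnip, at 100 mg/kg on Day 1 for Fkbp5, at 100 mg/kg on Day 0 for Tsc22d3 and at 50 mg/kg on Day 0 for Zbtb16 and Klf9. Of the 63 steps between neighbouring groups in these orders, 0 passed an adjusted p under 0.05 in 2-sided exact permutation tests of 6 against 6 mice, and 6 had an unadjusted p under 0.05. The smallest p that such a test allows is 0.00216 (adjusted exact p 0.0682), and it was reached by the step of Zbtb16 from 100 mg/kg on Day 1 to vehicle TBI and by its step from vehicle TBI to 200 mg/kg TBI.

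**Figure D1:**
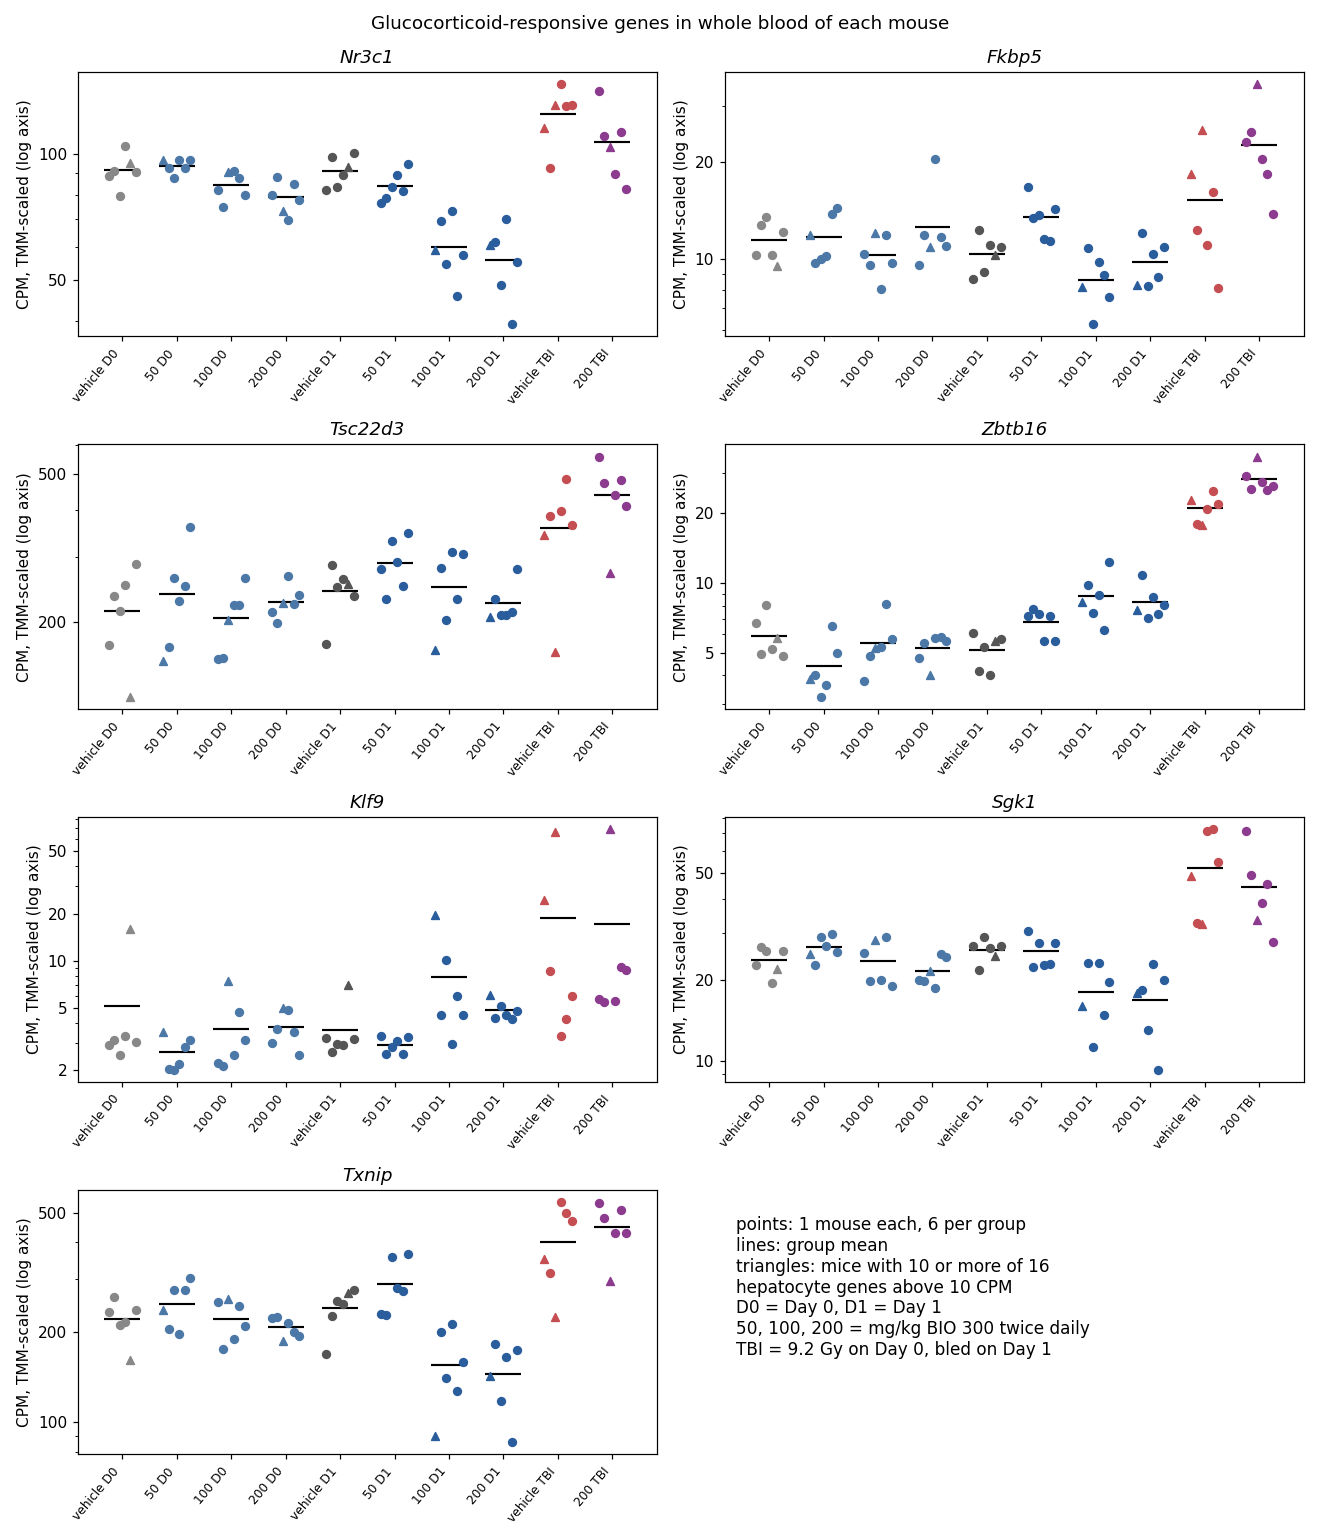
Levels of the 7 genes in each of 60 mice, in TMM-scaled CPM on a log axis, by group (D0, Day 0; D1, Day 1; numbers, mg/kg BIO 300). Points are mice, lines are means of 6 mice and triangles are hepatocyte-transcript mice. All 12 irradiated mice lie above the other 48 for Zbtb16, with 17.9 CPM as their lowest level against 12.3 CPM, and the highest Klf9 points are triangles.

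None of the 7 genes passed at any dose on Day 0 with TMM. At 50 mg/kg 14.1% of all genes passed. With total counts 5 members passed there as higher (log2 0.72 to 0.85), all but Zbtb16 and Klf9, and Zbtb16 turned to 0.26 (adjusted p = 0.302). Of all genes 12976 of 24485 passed with total counts, 12092 of them as higher, and the median log2 fold change of all genes was 0.69. Zbtb16 was 3.22, 3.94 and 6.53 CPM (lowest, median and highest) at 50 mg/kg and 4.86, 5.49 and 8.07 CPM in vehicle mice, a log2 fold change of -0.43 (SE 0.19, adjusted p = 0.141) with overlapping groups. Klf9 was 2.02, 2.51 and 3.53 CPM against 2.51, 3.09 and 16.0 CPM (log2 -0.95, SE 0.44, adjusted p = 0.165), and the vehicle value of 16.0 CPM was in the hepatocyte-transcript mouse 17. Without hepatocyte-transcript mice the Klf9 difference was -0.27 (adjusted p = 0.24). Without the 50 mg/kg mouse 5, Zbtb16 passed (-0.59, adjusted p = 0.0411). The other 5 members differed by 0.04 to 0.19 on the log2 scale.

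At 100 and 200 mg/kg on Day 0, 0 members passed. All genes gave 0 calls at both doses (0.0% called), with 726 and 2145 genes at an unadjusted p under 0.05 and 5 and 4 calls by DESeq2. At 200 mg/kg Nr3c1 was 69.5, 78.7 and 87.9 CPM against 79.6, 90.9 and 105 CPM in vehicle mice, with overlap (log2 -0.20, SE 0.08, adjusted p = 0.546). The vehicle groups of Day 1 and Day 0 also gave 0 members and 0.0% of all genes, with 3007 genes at an unadjusted p under 0.05 and 777 calls by DESeq2. Member differences between those vehicle groups ran from -0.49 (Klf9, SE 0.47, adjusted p = 0.681) to 0.18 (Tsc22d3, SE 0.19, adjusted p = 0.709).

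At 50 mg/kg on Day 1, 0 members passed, beside 0.00829% of all genes (2 of 24118, with 4458 at an unadjusted p under 0.05 and 1205 calls by DESeq2). Fkbp5 was 11.3, 13.6 and 16.7 CPM against 8.66, 10.6 and 12.3 CPM in Day 1 vehicle mice. The groups overlapped, and the log2 fold change of 0.39 (SE 0.11) had an adjusted p of 0.114. Zbtb16 was 5.61, 7.23 and 7.73 CPM against 4.02, 5.44 and 6.09 CPM, also overlapping (log2 0.41, SE 0.13, adjusted p = 0.134). DESeq2 called both (adjusted p = 0.0205 for Fkbp5 and 0.0422 for Zbtb16). The Zbtb16 effect of 50 mg/kg differed between days in the test of the interaction (log2 0.85, SE 0.23, adjusted p = 0.0124; 17.5% of all genes passed), the only member to pass there, and this difference was -0.19 with libraries scaled by total counts.

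At 100 and 200 mg/kg on Day 1, Nr3c1, Sgk1 and Txnip were lower than in vehicle mice, Zbtb16 was higher, and Fkbp5 and Tsc22d3 did not pass. Of the 7 members, 5 passed at 100 mg/kg and 4 at 200 mg/kg, beside 65.6% and 63.5% of all genes, so the shares of members were near those of all genes. With total counts Zbtb16 changed direction, to -0.54 and -0.75 at the lower and higher of these doses. Fkbp5 (-1.59 and -1.53) and Tsc22d3 (-1.3 and -1.57) then passed as lower. With pan-leukocyte scaling Tsc22d3 passed at 200 mg/kg (-0.29, adjusted p = 0.0441).

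Zbtb16 was 6.26, 8.57 and 12.3 CPM at 100 mg/kg and 7.09, 7.85 and 10.8 CPM at 200 mg/kg, against 4.02, 5.44 and 6.09 CPM in vehicle mice. All 12 dosed mice lay above all 6 vehicle mice, and how many of all genes did so was not counted. The log2 fold changes were 0.84 (SE 0.17, adjusted p = 0.000798) and 0.76 (SE 0.16, adjusted p = 0.000928), and no mouse left out ended the call. Relative to the median of all genes, Zbtb16 was 1.22, 1.21 and 1.17 higher at 100 mg/kg and 1.24, 1.21 and 1.23 higher at 200 mg/kg under TMM, total count and pan-leukocyte scaling.

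Nr3c1, the receptor itself, was 45.9, 58.2 and 73.2 CPM at 100 mg/kg and 39.3, 58.0 and 69.9 CPM at 200 mg/kg, against 82.2, 91.1 and 101 CPM in vehicle mice, again without overlap. It fell by 0.54 (SE 0.12, adjusted p = 0.0016) and by 0.63 (SE 0.13, adjusted p = 0.000928) on the log2 scale. Relative to the median of all genes the TMM difference was -0.16 and -0.15. These gaps from the median of the genes tested were close to the SEs of the fold changes and were not tested. That median depended on the low-count filter.

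Sgk1 was 11.3, 17.9 and 23.3 CPM at 100 mg/kg and 9.32, 18.2 and 22.9 CPM at 200 mg/kg, against 21.9, 26.5 and 29.0 CPM in vehicle mice. It fell by 0.45 (SE 0.17, adjusted p = 0.03) and by 0.53 (SE 0.18, adjusted p = 0.019), the dosed and vehicle mice overlapped, and relative to all genes it was -0.07 and -0.05. Txnip was 89.9, 150 and 212 CPM at 100 mg/kg and 85.9, 154 and 182 CPM at 200 mg/kg, against 169, 251 and 277 CPM. It fell by 0.57 (SE 0.20, adjusted p = 0.0239) and by 0.66 (SE 0.19, adjusted p = 0.00665), and relative to all genes it was -0.19 and -0.18. These gaps from the median of the genes tested were smaller than the SEs of the fold changes and were not tested. The median itself depended on the low-count filter. At 100 mg/kg the Sgk1 call was lost without vehicle mouse 27 or 28 or dosed mouse 37 or 41, the Txnip call without mouse 41 (log2 -0.51, adjusted p = 0.0539), and both without hepatocyte-transcript mice (Sgk1 -0.42, adjusted p = 0.0558; Txnip -0.40, adjusted p = 0.0729).

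Klf9 was 2.95, 5.22 and 19.6 CPM at 100 mg/kg and 4.23, 4.64 and 6.02 CPM at 200 mg/kg, against 2.63, 3.06 and 6.99 CPM in vehicle mice. The highest mouse of each of these 3 groups was a hepatocyte-transcript mouse. The log2 fold change was 1.17 (SE 0.42, adjusted p = 0.0233) at 100 mg/kg and 0.48 (SE 0.24, adjusted p = 0.0992) at 200 mg/kg. Without the hepatocyte-transcript mice it was 0.96 (adjusted p = 0.00237) and 0.72 (adjusted p = 0.000863), so that Klf9 then passed at both doses. Without the 100 mg/kg mouse 37 alone it was 0.66 (adjusted p = 0.075), and without the vehicle mouse 29 alone the value at 200 mg/kg was 0.78 (adjusted p = 0.00124). The call at 100 mg/kg was also lost with pan-leukocyte scaling (1.21, adjusted p = 0.0545) and in the joint fit of all 60 mice (1.13, adjusted p = 0.0794), and Klf9 passed at 200 mg/kg with filterByExpr (0.59) and DESeq2 (0.55). With total counts the Klf9 values were -0.18 and -1.02.

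Fkbp5, the target that feeds back on the receptor, was 6.24, 8.52 and 10.8 CPM at 100 mg/kg and 8.23, 9.57 and 12.1 CPM at 200 mg/kg, within or below the vehicle range of 8.66 to 12.3 CPM. Its log2 fold changes were -0.21 (SE 0.15, adjusted p = 0.242) and -0.01 (SE 0.14, adjusted p = 0.95). Tsc22d3 was 168, 255 and 309 CPM and 206, 211 and 277 CPM against 174, 251 and 285 CPM (log2 0.10, SE 0.17, adjusted p = 0.629, and -0.04, SE 0.13, adjusted p = 0.793). Relative to all genes these TMM differences were 0.17 and 0.47 for Fkbp5 and 0.48 and 0.44 for Tsc22d3.

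**Figure D2:**
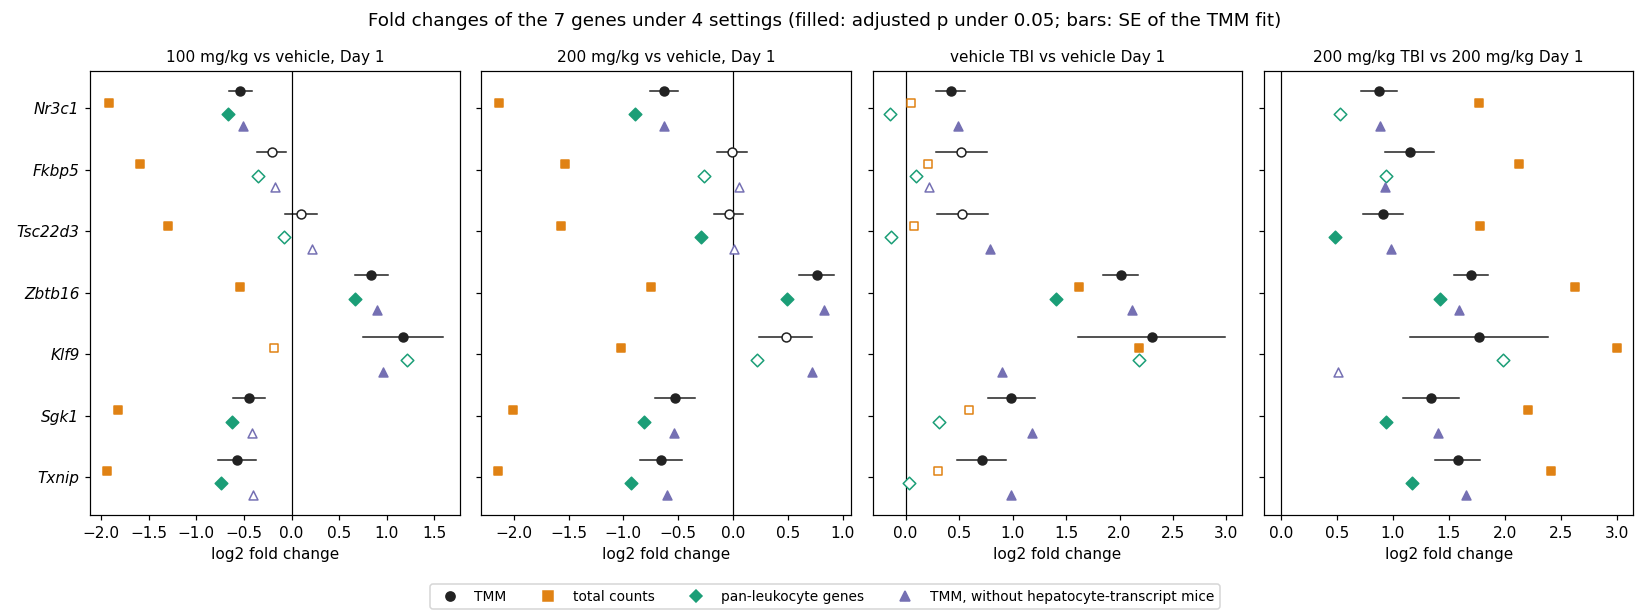
Log2 fold changes of the 7 genes in 4 comparisons of 6 mice each. Circles are TMM values with bars of 1 SE, squares total count scaling, diamonds pan-leukocyte scaling and triangles TMM without hepatocyte-transcript mice, filled where the adjusted p was under 0.05. Zbtb16 at 100 mg/kg on Day 1 is 0.84 with TMM and -0.54 with total counts, and Klf9 after TBI is 2.30 with and 0.90 without the hepatocyte-transcript mice.

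The doses were also compared directly on Day 1. Between 200 and 100 mg/kg 0 members and 0.0% of all genes passed, with 725 genes at an unadjusted p under 0.05 and 0 calls by DESeq2. The member differences ran from -0.72 (Klf9, SE 0.40, adjusted p = 0.999) to 0.21 (Fkbp5, SE 0.16, adjusted p = 0.999). Between 100 and 50 mg/kg 6 members passed, beside 64.9% of all genes. Fkbp5 fell by 0.59 (SE 0.14, adjusted p = 0.00259), with all 6 mice at 100 mg/kg (at most 10.8 CPM) below all 6 at 50 mg/kg (at least 11.3 CPM). Txnip fell by 0.83 (SE 0.20, adjusted p = 0.00196), Nr3c1 by 0.43 (SE 0.11, adjusted p = 0.00468) and Sgk1 by 0.45 (SE 0.16, adjusted p = 0.0264). Klf9 rose by 1.51 (SE 0.37, adjusted p = 0.0027) and Zbtb16 by 0.43 (SE 0.17, adjusted p = 0.0345), while Tsc22d3 was -0.15 (SE 0.16, adjusted p = 0.433). The Zbtb16 call was lost without mouse 34, 36, 38 or 42 (0.31 to 0.39) and the Sgk1 call without mouse 31, 33 or 41 (-0.43 to -0.38), and Zbtb16 was -0.62 with total counts. All 16 hepatocyte genes were also higher at 100 mg/kg than at 50 mg/kg, the 50 mg/kg group of Day 1 having no hepatocyte-transcript mouse, and the Klf9 difference without such mice was 0.97 (adjusted p = 0.00149).

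The contrast between days at one dose was tested directly. From Day 0 to Day 1 at 200 mg/kg 3 members passed, beside 54.4% of all genes: Zbtb16 rose by 0.73 (SE 0.15, adjusted p = 0.00116), Nr3c1 fell by 0.42 (SE 0.13, adjusted p = 0.0131) and Txnip fell by 0.45 (SE 0.16, adjusted p = 0.0302). The Txnip call was lost without mouse 19, 20 or 45 (-0.42 to -0.39), and Klf9 (0.44, adjusted p = 0.0706) passed without mouse 21 (0.55, adjusted p = 0.0329). In the interaction, which subtracts the change of the vehicle mice, 4 members passed at 100 mg/kg (54.2% of all genes) and 3 at 200 mg/kg (48.8%). The Zbtb16 effect was larger on Day 1 than on Day 0 by 0.94 (SE 0.26, adjusted p = 0.00392) at 100 mg/kg and by 0.93 (SE 0.22, adjusted p = 0.00102) at 200 mg/kg. The Nr3c1 interactions were -0.43 (SE 0.14, adjusted p = 0.0113) and -0.42 (SE 0.15, adjusted p = 0.0217), and those of Txnip -0.59 (SE 0.25, adjusted p = 0.0482) and -0.57 (SE 0.22, adjusted p = 0.0321). The Klf9 interaction at 100 mg/kg was 1.63 (SE 0.69, adjusted p = 0.0482). The Txnip and Klf9 calls at 100 mg/kg were lost in 18 and 14 of the 24 fits that left out 1 mouse, Klf9 being 0.85 without mouse 17 and 1.08 without mouse 37. The Txnip call at 200 mg/kg was lost without mouse 17, 20, 30 or 45 (-0.55 to -0.50). Sgk1 passed at 100 mg/kg without mouse 38 or 40 (-0.57 each) and at 200 mg/kg without mouse 46 (-0.50). With total counts the Zbtb16 interactions were -0.55 and -0.37.

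After irradiation of vehicle mice, Zbtb16, Klf9, Sgk1, Txnip and Nr3c1 rose against Day 1 vehicle mice, by 1.34-fold for Nr3c1 to 4.02-fold for Zbtb16 and 4.94-fold for Klf9, and Fkbp5 and Tsc22d3 did not pass. The Klf9 change was log2 2.30, and 0.90 without hepatocyte-transcript mice. Thus 5 of 7 were higher and 0 lower, beside 46.8% of all genes called and 24.4% called higher. This count depended on the scaling and the fit. With total counts 2 passed, Zbtb16 and Klf9, and with pan-leukocyte scaling 1, Zbtb16, while RLE, filterByExpr, DESeq2 and the joint fit called all 7. Of 25146 genes tested, 3854 were called higher with total counts, 3068 with pan-leukocyte scaling and 6729 with RLE. It was 5106 of 16117 with filterByExpr, 6895 of 24939 with DESeq2 and 7791 of 29271 in the joint fit. Against Day 0 vehicle mice 5 of 7 were higher, beside 36.4% of all genes: Zbtb16 by 1.92, Sgk1 by 1.24, Txnip by 0.96, Tsc22d3 by 0.85 and Nr3c1 by 0.53. With total counts 2 passed there, Zbtb16 and Sgk1, and with pan-leukocyte scaling 1, Zbtb16. Of 24751 genes tested there, 3572 and 1883 were called higher under these scalings. Both comparisons share the irradiated mice. Neutrophil markers were higher in 8 of 8 genes (median log2 2.95), platelet markers in 8 of 8 (2.57), and B and T cell markers lower in 8 of 8 each (-3.49 and -2.32) in the comparison with Day 1, and their part in the member changes was not tested.

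Zbtb16 was 17.9, 21.5 and 25.0 CPM in irradiated vehicle mice and 4.02, 5.44 and 6.09 CPM in Day 1 vehicle mice. The irradiated mice lay 4.02-fold higher with no overlap (log2 2.01, SE 0.16, adjusted p = 4.14e-06), and the call held with every mouse left out. Relative to the median of all genes under TMM, total count and pan-leukocyte scaling the difference was 1.92, 1.90 and 1.84, values that the subtraction makes alike. With TMM all 12 irradiated mice exceeded all 48 others, the lowest at 17.9 CPM and the highest of the others at 12.3 CPM, as did 367 of 13459 genes with a mean of at least 1 CPM (2.73%). With total counts the limits were 11.9 and 13.0 CPM and with pan-leukocyte scaling 12.2 and 12.4 CPM, and in each 1 other mouse lay above the lowest irradiated mouse.

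Sgk1 was 32.3, 51.7 and 72.5 CPM against 21.9, 26.5 and 29.0 CPM, also without overlap (1.98-fold, log2 0.99, SE 0.22, adjusted p = 0.00307). Relative to all genes it was 0.90, 0.87 and 0.74 higher under the 3 scalings, but its call was lost with total counts (0.59, adjusted p = 0.0788) and with pan-leukocyte scaling (0.31, adjusted p = 0.13). Among the 12 irradiated mice, Sgk1 was 71.5 to 72.5 CPM in the 3 with the highest summed neutrophil markers (6107 to 6628 CPM) and 32.3, 33.5 and 27.7 CPM in the 3 with the lowest (1313, 1584 and 2514 CPM). Zbtb16 in those same mice was 20.9 to 29.0 CPM and 17.9, 35.2 and 26.2 CPM, so its ranges overlapped, but both irradiated groups are pooled here. Within vehicle TBI, Zbtb16 was 17.9 CPM in mice 51 and 50, with the fewest neutrophil markers, and 25.0 CPM in mouse 53, with the most. Within 200 mg/kg TBI it was 35.2 CPM in mouse 57, with the fewest, and 29.0 CPM in mouse 55, with the most. The part of neutrophils in either gene was not tested. The mice with 1313 and 1584 CPM of neutrophil markers were the hepatocyte-transcript mice 51 and 57, and mouse 57 held the Zbtb16 level of 35.2 CPM.

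Txnip was 224, 410 and 543 CPM against 169, 251 and 277 CPM (1.63-fold, log2 0.71, SE 0.23, adjusted p = 0.0246), with overlap at mouse 51, which held 38360 CPM of hepatocyte transcripts. Nr3c1 was 92.9, 131 and 147 CPM against 82.2, 91.1 and 101 CPM (1.34-fold, log2 0.42, SE 0.14, adjusted p = 0.0232). Both calls depended on single mice. The Nr3c1 call was lost without vehicle mouse 25 or 27 or irradiated mouse 52 (0.36 to 0.40), and the Txnip call without vehicle mouse 25 or 26 or irradiated mouse 52 or 53 (0.59 to 0.70). With total counts both were lost (Nr3c1 0.05, adjusted p = 0.865; Txnip 0.30, adjusted p = 0.287). With pan-leukocyte scaling Nr3c1 was -0.15 and Txnip 0.03, beside a median of -0.43 for all genes.

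Fkbp5 and Tsc22d3, 2 of the classical targets, did not pass against Day 1 vehicle mice in the TMM fit. Other settings called both as higher. The adjusted p of Fkbp5 was 0.0461 with RLE, 0.0335 with filterByExpr, 0.0299 with DESeq2 and 0.0128 in the joint fit, and that of Tsc22d3 was 0.041, 0.0406, 0.0192 and 0.0137. Fkbp5 was 8.12, 14.3 and 25.3 CPM against 8.66, 10.6 and 12.3 CPM (log2 0.52, SE 0.24, adjusted p = 0.0887), and its highest value was again in mouse 51. Without hepatocyte-transcript mice it was 0.22 (adjusted p = 0.323), and without mouse 54, the lowest irradiated one, 0.65 (adjusted p = 0.0264). Tsc22d3 was 166, 376 and 487 CPM against 174, 251 and 285 CPM (log2 0.53, SE 0.24, adjusted p = 0.0794). Its lowest irradiated value was in mouse 51, and the other 5 irradiated mice (343 CPM and above) lay above all vehicle mice. Without mouse 51 it was 0.71 (adjusted p = 0.00215) and without all hepatocyte-transcript mice 0.79 (adjusted p = 0.00255). Against Day 0 vehicle mice it was 0.85 (SE 0.29, adjusted p = 0.0342), a call lost in 9 of 12 fits that left out 1 mouse (0.62 to 0.88). In that comparison Fkbp5 (0.47, adjusted p = 0.113) passed without mouse 54 (0.59).

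Klf9 had the widest spread of the members after TBI. It was 3.32, 7.28 and 66.6 CPM in irradiated vehicle mice against 2.63, 3.06 and 6.99 CPM, a log2 fold change of 2.30 (SE 0.69, adjusted p = 0.0158) with overlap. The irradiated hepatocyte-transcript mice 49 and 51 had 24.3 and 66.6 CPM, and the other 4 had 3.32 to 8.56 CPM with a mean of 5.53. Without hepatocyte-transcript mice the difference was 0.90 (adjusted p = 0.00375), so the call held at a smaller size. It was lost with pan-leukocyte scaling (2.18, adjusted p = 0.0561). Against Day 0 vehicle mice it was 1.83 (SE 0.75, adjusted p = 0.0735), and it passed without mouse 17 (2.65) or 52 (2.04). Klf9 is also expressed in liver, and the part of liver RNA in its level was not tested. Over the 10 hepatocyte-transcript mice, Klf9 was 3.53 CPM in the mouse with the lowest hepatocyte sum (1105 CPM) and 66.6 CPM in that with the highest (38360 CPM), while mouse 57 had 69.0 CPM at 14020 CPM and mouse 17 had 16.0 CPM at 15510 CPM.

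**Figure D3:**
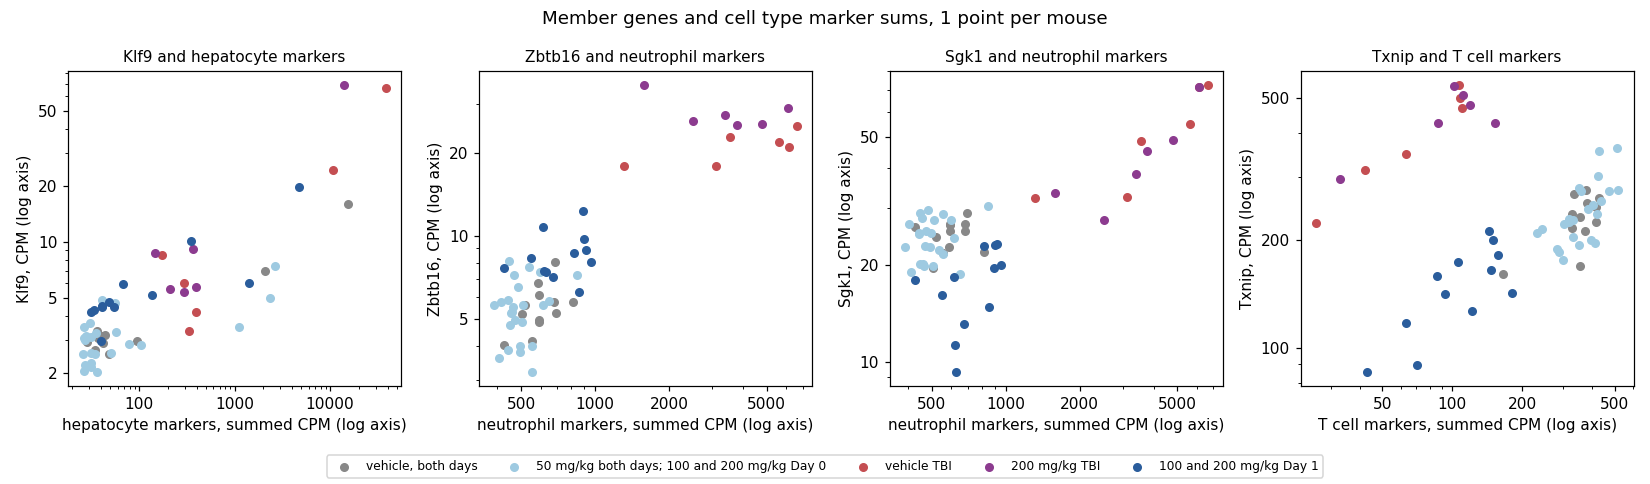
Level of Klf9 against summed hepatocyte markers, of Zbtb16 and Sgk1 against summed neutrophil markers, and of Txnip against summed T cell markers, all in CPM on log axes, with 1 point per mouse. The 4 mice with the most hepatocyte transcripts (10690 to 38360 CPM) have Klf9 levels from 16.0 to 69.0 CPM. Irradiated mice hold 1313 to 6628 CPM of neutrophil markers, and the irradiated mice with the fewest are among the highest (35.2 CPM) and the lowest (17.9 CPM) of them for Zbtb16. Both of these are hepatocyte-transcript mice, the first of the 200 mg/kg TBI group and the second of the vehicle TBI group.

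In irradiated mice given 200 mg/kg, against irradiated vehicle mice, 0 members and 0.0% of all genes passed, with 688 genes at an unadjusted p under 0.05 and 0 calls by DESeq2. Zbtb16 was 25.3, 26.8 and 35.2 CPM against 17.9, 21.5 and 25.0 CPM. These groups did not overlap, but the log2 fold change of 0.36 (SE 0.16) had an adjusted p of 1.0, and no gene passed in this comparison. Fkbp5 was 13.8, 21.9 and 35.1 CPM against 8.12, 14.3 and 25.3 CPM (log2 0.53, SE 0.31, adjusted p = 1.0). The others were -0.27 for Nr3c1 (SE 0.17), 0.24 for Tsc22d3 (SE 0.24), -0.14 for Klf9 (SE 0.91), -0.28 for Sgk1 (SE 0.27) and 0.11 for Txnip (SE 0.22), with adjusted p-values of 1.0 in the edgeR fit.

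Set against unirradiated mice given the same 200 mg/kg and bled on the same day, all 7 members were higher after TBI, beside 27.2% of all genes called and 17.6% called higher. Zbtb16 was 25.3 to 35.2 CPM against 7.09 to 10.8 CPM (log2 1.70, SE 0.15, adjusted p = 2.79e-05). Txnip was 297 to 540 CPM against 85.9 to 182 CPM (log2 1.58, SE 0.20, adjusted p = 0.000147), and Sgk1 27.7 to 71.5 CPM against 9.32 to 22.9 CPM (log2 1.34, SE 0.25, adjusted p = 0.00187). Fkbp5 was 13.8 to 35.1 CPM against 8.23 to 12.1 CPM (log2 1.15, SE 0.22, adjusted p = 0.00183), and Nr3c1 82.5 to 141 CPM against 39.3 to 69.9 CPM (log2 0.88, SE 0.16, adjusted p = 0.00168). In these 5 genes the irradiated and unirradiated mice did not overlap, but the share of all genes without overlap was not counted here. Tsc22d3 was 271 to 559 CPM against 206 to 277 CPM (log2 0.91, SE 0.18, adjusted p = 0.00229), overlapping at the hepatocyte-transcript mouse 57. Klf9 was 1.77 (SE 0.62, adjusted p = 0.0494), and without hepatocyte-transcript mice 0.51 (adjusted p = 0.0559), and its call was lost in 7 of 12 fits that left out 1 mouse (1.82 to 1.98). The median of all genes in this comparison was 0.41 with TMM. With pan-leukocyte scaling 4 of the 7 passed, the calls of Nr3c1 (0.53, adjusted p = 0.118), Fkbp5 (0.94, adjusted p = 0.0799) and Klf9 (1.98, adjusted p = 0.107) being lost. Of all genes 5315 of 23610 passed with that scaling, 2269 of them as higher.

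Whether the TBI effect differed between 200 mg/kg and vehicle was tested as an interaction, in which 2 members passed, beside 33.9% of all genes. The rise of Txnip after TBI was larger in dosed mice by 0.99 (SE 0.28, adjusted p = 0.00929) and that of Nr3c1 by 0.57 (SE 0.21, adjusted p = 0.0345). Both interactions start from the lower level of the unirradiated dosed mice: Txnip was 446 ± 86.1 CPM at 200 mg/kg TBI and 400 ± 123 CPM in vehicle TBI mice, and without TBI 144 ± 37.1 and 240 ± 39.2 CPM (mean ± SD, n = 6 each). The median of all genes in the interaction was 0.60, close to the Nr3c1 value, and 0.387 with filterByExpr. The Nr3c1 call was lost in 9 of 24 fits that left out 1 mouse (0.48 to 0.56). Fkbp5 (0.76, SE 0.35, adjusted p = 0.0954) passed without mouse 51 (0.94) or 60 (0.87). The interaction of Zbtb16 was -0.18 (SE 0.21, adjusted p = 0.55).

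Genes around the receptor were counted in lists, to be read beside the share of all genes called, which for 100 and 200 mg/kg on Day 1 was 65.6% and 63.5%, 46.8% after TBI against Day 1 vehicle and 14.1% at 50 mg/kg on Day 0. Total count scaling shifted the genes picked by name from these lists for 100 mg/kg on Day 1 by -1.41 to -1.35 and for 200 mg/kg by -1.55 to -1.47, so rises shrank and falls grew. Of 12 receptor chaperones and hormone enzymes, 4 were higher and 2 lower at 100 mg/kg on Day 1, 4 and 2 at 200 mg/kg, 2 and 0 after TBI against Day 1 vehicle, and 0 and 2 at 50 mg/kg on Day 0. These shares of the list were below those of all genes, except for 2 of 12 at 50 mg/kg. Bag1, a co-chaperone of HSP70, was 463 CPM at 100 mg/kg and 564 CPM at 200 mg/kg against 101 CPM in vehicle mice (log2 2.26, SE 0.15, adjusted p = 3.27e-08, and 2.56, SE 0.21, adjusted p = 1.12e-07), and at 50 mg/kg on Day 0 it was 56.4 CPM against 136 CPM (log2 -1.26, SE 0.21, adjusted p = 0.00286). With total counts these values were 0.87, 1.0 and -0.61. Erythroid markers moved the same way, higher in 8 of 8 genes at 100 and 200 mg/kg on Day 1 and lower in 4 of 8 at 50 mg/kg on Day 0, and their part in Bag1 was not tested. Dnaja1, a DNAJ co-chaperone, fell by 0.73 (SE 0.16, adjusted p = 0.00113) and by 0.88 (SE 0.16, adjusted p = 0.000226). Ptges3, the p23 co-chaperone of HSP90, rose by 0.45 (SE 0.11, adjusted p = 0.00185) at 100 mg/kg, and it was -0.94 with total counts and 0.32 (adjusted p = 0.0691) with pan-leukocyte scaling.

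Of 12 receptor coregulators, 6 were higher and 4 lower at 100 mg/kg on Day 1, 5 and 3 at 200 mg/kg, 4 and 3 after TBI, and 0 and 3 at 50 mg/kg on Day 0. The shares of all genes called in these comparisons were 65.6%, 63.5%, 46.8% and 14.1%. Ncoa1, a p160 coactivator, was 163 and 168 CPM at 100 and 200 mg/kg and 189 CPM after TBI against 55.6 CPM in Day 1 vehicle mice (log2 1.61, 1.67 and 1.73, adjusted p = 1.25e-05, 1.69e-06 and 0.000213). With total counts its calls at 100 and 200 mg/kg were lost (0.21 and 0.14, adjusted p = 0.322 and 0.417). Carm1, an arginine methyltransferase that works with such coactivators, was 99.0 and 118 CPM against 39.9 CPM on Day 1 (log2 1.37 and 1.63, adjusted p = 2.32e-05 and 1.03e-05) and 30.6 against 61.5 CPM at 50 mg/kg on Day 0 (log2 -1.0, adjusted p = 0.00284). With total counts Carm1 was -0.02 and 0.11 (adjusted p = 0.916 and 0.507) at 100 and 200 mg/kg, and -0.33 at 50 mg/kg. After TBI Nrip1, a corepressor, rose by 0.80 (adjusted p = 0.0172), a call lost with total counts (0.29, adjusted p = 0.122) and with pan-leukocyte scaling (0.20, adjusted p = 0.549). The Mediator subunit Med1 fell by 0.61 (adjusted p = 0.00216).

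Of a further 26 genes known to be induced by the receptor, 16 were higher, 1 was lower and 9 did not pass after TBI against Day 1 vehicle mice, beside 46.8% of all genes called and 24.4% called higher. Their median log2 fold change was 1.43, and that of all genes 0.09. At 200 mg/kg TBI against 200 mg/kg Day 1 16 were higher and 0 lower (median 1.49 beside 0.41), where 27.2% of all genes were called and 17.6% called higher. With pan-leukocyte scaling the first count was 10 higher and 3 lower, where of 25146 genes 3068 were called higher and 8058 lower. These counts include the hepatocyte-transcript mice, and Tat is both in this list and among the 16 hepatocyte genes. The part of hepatocyte transcripts in the counts was not tested. Il1r2, the decoy receptor of interleukin-1, was 37.0 CPM after TBI against 2.90 CPM (log2 3.65, SE 0.34, adjusted p = 9.15e-06), and Cebpd, a bZIP factor, 117 against 17.5 CPM (log2 2.71, SE 0.36, adjusted p = 8.48e-05). Both are known to be expressed by neutrophils, whose markers rose in all 8 genes, and the part of neutrophils in these rises was not tested. Il7r, the interleukin-7 receptor of T cells, was 18.3 against 86.9 CPM (log2 -2.26, SE 0.39, adjusted p = 0.000497), in the direction of the T cell markers. The part of T cells in this fall was not tested either.

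On Day 1 without TBI the same 26 genes were split, 5 higher and 7 lower at 100 mg/kg and 4 and 8 at 200 mg/kg (medians 0.38 and 0.04, all genes -0.38 and -0.48). Of all genes 65.6% and 63.5% were called there. Glul, glutamine synthetase, was 248 and 242 CPM against 76.7 CPM (log2 1.74 and 1.73, adjusted p = 6.86e-07 and 5.82e-07). With total counts Glul was 0.35 (adjusted p = 0.0176) and 0.20 (adjusted p = 0.161), so the call at 200 mg/kg was lost. Il7r fell by 1.66 and 1.90 (adjusted p = 3.03e-05 and 6.59e-06) and Irs2, the insulin receptor substrate, by 1.13 and 1.05 (adjusted p = 1.78e-06 and 5.51e-05). At 50 mg/kg on Day 0 0 were higher and 3 lower, among them Glul, which fell by 0.99 (SE 0.14, adjusted p = 0.00255) and was -0.3 with total counts. In irradiated mice given 200 mg/kg against irradiated vehicle mice, 0 of the 26 passed.

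Of 14 tested cytokine genes that the receptor represses, 7 rose, 2 fell and 5 did not pass after TBI (median 1.17, all genes 0.09), beside 46.8% of all genes called and 24.4% called higher. Il1b, interleukin-1 beta, was 380 CPM against 50.1 CPM (log2 2.90, SE 0.38, adjusted p = 7.98e-05). The counts were 3 higher and 0 lower of 13 at 100 mg/kg on Day 1, 2 and 1 of 12 at 200 mg/kg, and 0 and 1 of 14 at 50 mg/kg on Day 0. The shares of all genes called there were 65.6%, 63.5% and 14.1%.

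Of 15 clock genes, 5 were higher and 1 lower after TBI, with a median of 1.35 that became -0.44, with 3 higher and 7 lower, without the hepatocyte-transcript mice. With all mice, 46.8% of all genes were called after TBI against Day 1 vehicle and 24.4% called higher. Arntl, the BMAL1 partner of CLOCK, was 2.59 CPM after TBI and 3.19 and 3.80 CPM at 100 and 200 mg/kg on Day 1, against 10.7 CPM in Day 1 vehicle mice (log2 -2.07, -1.68 and -1.40, adjusted p = 1.45e-05, 6.38e-05 and 0.000138). Per2, a repressor of the clock that the receptor also induces, was 19.1 against 6.08 CPM after TBI (log2 1.61, SE 0.34, adjusted p = 0.00195), 1.03 without hepatocyte-transcript mice and 1.29 (adjusted p = 0.0539) with pan-leukocyte scaling. At 100 and 200 mg/kg 2 and 1 clock genes were higher and 6 and 9 lower, beside 65.6% and 63.5% of all genes called. Of all genes, 9624 of 23699 and 9386 of 23513 were called lower there. Cry1 fell by 0.92 and 1.00 (adjusted p = 1.53e-05 and 0.000168) and Clock by 0.78 and 0.92 (adjusted p = 3.82e-06 and 0.000209). At 50 mg/kg on Day 0 1 clock gene was higher, Cry1 by 0.27 (adjusted p = 0.0273), a call lost in 5 of 12 fits that left out 1 mouse, with RLE (adjusted p = 0.0555), with pan-leukocyte scaling (adjusted p = 0.255) and in the joint fit (adjusted p = 0.402).

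Within groups, mice that were high in one member were compared for the others. After subtraction of group means, 8 of 21 pairs of members were correlated over the 60 mice at an adjusted p under 0.05 in permutation tests of Pearson's r that shuffled mice within groups. Txnip and Tsc22d3 (r = 0.688, rho = 0.621) and Txnip and Sgk1 (r = 0.682, rho = 0.689) were the closest, each with a permutation p of 1e-05 (adjusted 0.000105) for r and for rho, the smallest that 100000 permutations can give. Without the 2 mice farthest from the median their r was 0.617 and 0.645. Nr3c1 varied with Sgk1 (r = 0.639, permutation p = 6e-05, adjusted 0.00042, and rho = 0.456, permutation p = 0.00193, adjusted 0.0101). It also varied with Txnip (r = 0.522, permutation p = 0.00058, adjusted 0.00203, and rho = 0.554, permutation p = 5e-05, adjusted 0.00035). Without the 2 farthest mice these r were 0.533 and 0.447. The central 90% of 6737 genes with a mean of at least 10 CPM correlated with Txnip at -0.468 to 0.702 and with Sgk1 at -0.504 to 0.749. With Nr3c1 they correlated at -0.525 to 0.657 and with Tsc22d3 at -0.57 to 0.566. The r of Txnip and Tsc22d3 lay inside the range of Txnip but above that of Tsc22d3. The r of the other pairs named above lay inside both ranges.

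Fkbp5 and Tsc22d3, which the hormone raises together, had r = -0.0133 (permutation p = 0.939, adjusted 0.944) and rho = 0.242 (permutation p = 0.0883, adjusted 0.143), and r was 0.205 without the 2 farthest mice. Without the 10 hepatocyte-transcript mice both r and rho were 0.494 over 50 mice (adjusted permutation p = 0.00142 and 0.00399). Klf9 ran against Tsc22d3 (r = -0.619, permutation p = 0.00022, adjusted 0.00115, and rho = -0.389, permutation p = 0.00689, adjusted 0.0241), and r was -0.458 without the 2 farthest mice. Without the hepatocyte-transcript mice r was -0.0276 (adjusted permutation p = 0.907), so the relation rested on those mice. Without them 11 of 21 pairs passed. With total counts 18 pairs passed.

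The genes whose 10 group means most resembled those of each member were described over about 6737 genes with a mean of at least 10 CPM. For Tsc22d3 they were Dusp1 (r = 0.946), Bcl2l11 (0.935) and 5830432E09Rik (0.935), and for Fkbp5 Ubn1 (0.957), Gm10499 (0.937) and Zfp36l2 (0.925). Dusp1, Bcl2l11 and Zfp36l2 also stand in the list of induced targets. For Zbtb16 they were Arap3 (0.994), Rhob (0.992) and Igf1r (0.991), for Sgk1 AB124611 (0.996), Kif3b (0.995) and Edem2 (0.994), and for Txnip Lpcat4 (0.988), Thbd (0.985) and Znrf1 (0.983). For Nr3c1 they were Lipa (0.99), Rps6ka4 (0.99) and Wsb1 (0.989). For Klf9 they were S100a8 (0.988), Trp53inp2 (0.986) and Spidr (0.985), and S100a8 is one of the neutrophil markers.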

How the data were processed

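The deposited tables hold integer read counts per gene for each mouse. To make them the authors used Trimmomatic 0.36 for trimming, STAR 2.5.2b for alignment to the GRCm38 build and Subread 1.5.2 for counting of unique hits. The annotation release and strand setting were not given in the sources used here, and the labels name polyA selection where the methods name ribosomal and globin RNA depletion. The authors' deposited fold changes, p-values and size-factor normalized values were not used. The 10 count tables gave 60 mice with identical counts where a mouse recurred.

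Genes with at least 10 counts over the mice of a fit were tested with edgeR 4.0.16 (TMM, quasi-likelihood) in R 4.3.3 for 14 pairs of groups and 4 interactions, with Benjamini-Hochberg adjustment over all genes tested. Levels are CPM with TMM over 60 mice, and correlations and ordered steps used log2(CPM + 1). The alternatives were total count, RLE and pan-leukocyte scaling, other low-count filters, DESeq2 1.42.0, 1 joint fit, each mouse left out and hepatocyte-transcript mice left out. The scripts were tested on simulated data in which 200 genes were changed. Of log2 changes of 1, 32.5% were recovered for TBI against Day 1 vehicle and 12.5% in the TBI interaction. Of log2 changes of 2, 81% and 57.5% were recovered. A gene that did not pass is thus not shown to be unchanged. Animals are the replicates, and labels give no batch.

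The members, lists and rules were chosen with earlier results of these data known. All members are reported, and by name, in 4 comparisons, up to 3 genes per pathway list with the largest change among those that passed, reached 10 CPM in a group and did not overlap; a gene that this rule names is not reported here. The symbols of the lists were matched to identifiers, and promoters came from RefSeq.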

Additional observations from a re-analysis of the deposited data

Results flagged for a closer look

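A mouse stood apart from the other 5 of its group in 7 of 70 combinations of gene and group, where chance flags about 1 in 20, and 5 of the 7 were hepatocyte-transcript mice. For Klf9 these were mouse 51 of vehicle TBI (66.6 CPM, others 3.32 to 24.3), mouse 57 of 200 mg/kg TBI (69.0 CPM, others 5.42 to 9.15), mouse 17 of vehicle Day 0 (16.0 CPM, others 2.51 to 3.33) and mouse 29 of vehicle Day 1 (6.99 CPM, others 2.63 to 3.23). Mouse 57 also stood apart for Zbtb16 (35.2 CPM, others 25.3 to 29.0). The other cases were Fkbp5 in mouse 22 at 200 mg/kg on Day 0 (20.4 CPM, others 9.54 to 11.9) and Tsc22d3 in mouse 48 at 200 mg/kg on Day 1 (277 CPM, others 206 to 231).

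The test of the difference between effects was passed by 10 member interactions in edgeR. Between days these were Zbtb16 at 50 mg/kg (0.85), Nr3c1 (-0.43), Zbtb16 (0.94), Klf9 (1.63) and Txnip (-0.59) at 100 mg/kg, and Nr3c1 (-0.42), Zbtb16 (0.93) and Txnip (-0.57) at 200 mg/kg. Between dosed and vehicle mice, the TBI effects on Nr3c1 (0.57) and Txnip (0.99) differed. Of all genes, 17.5%, 54.2% and 48.8% passed the day interactions at 50, 100 and 200 mg/kg, and 33.9% passed that of TBI.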

How the results depend on the processing

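No paired analysis was possible because the labels' animal numbers are not shared between groups. The scaling mattered most. With libraries scaled by total counts, values turned at 100 mg/kg on Day 1 (Tsc22d3 -1.3, Zbtb16 -0.54, Klf9 -0.18, Ptges3 -0.94, Carm1 -0.02), at 200 mg/kg on Day 1 (Zbtb16 -0.75, Klf9 -1.02), between 200 mg/kg on Day 1 and Day 0 (Tsc22d3 -0.9, Zbtb16 -0.24), between 100 and 50 mg/kg on Day 1 (Zbtb16 -0.62), in the day interactions at 50 mg/kg (Fkbp5 -0.65, Tsc22d3 -0.87, Zbtb16 -0.19, Txnip -0.85), 100 mg/kg (Tsc22d3 -1.3, Zbtb16 -0.55, Klf9 -0.04) and 200 mg/kg (Zbtb16 -0.37), and in the TBI interaction (Zbtb16 1.01). With pan-leukocyte scaling they turned for TBI against Day 1 vehicle (Nr3c1 -0.15), TBI against Day 0 vehicle (Nr3c1 -0.22, Tsc22d3 -0.0) and 200 mg/kg on Day 1 against Day 0 (Tsc22d3 -0.31). The scalings move the median of all genes, which was -1.76 with total counts and -0.38 with TMM at 100 mg/kg on Day 1. These are values that passed in at least 1 of the settings compared. Among values that passed in neither, 41 combinations of gene and comparison turned under some alternative, 15 of them with total counts (Zbtb16 at 50 mg/kg on Day 0 from -0.43 to 0.26) and 11 without hepatocyte-transcript mice (Klf9 from -0.43 to 0.25 at 200 mg/kg on Day 0 and from -0.14 to 0.27 between the irradiated groups). With RLE, filterByExpr, no filter, DESeq2 or the joint fit, such values were between -0.07 and 0.1.

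Counts of members that passed moved by over 1.5 times with total counts from 0 to 5 at 50 mg/kg on Day 0, 4 to 7 at 200 mg/kg on Day 1, 5 to 2 in both TBI comparisons with vehicle, 3 to 5 between days at 200 mg/kg, and in the interactions 1 to 5 (50 mg/kg), 3 to 5 (200 mg/kg) and 2 to 6 (TBI); correlated pairs went from 8 to 18. With pan-leukocyte scaling the 2 TBI comparisons gave 1 each, 200 mg/kg TBI against 200 mg/kg Day 1 gave 4 (main 7), the days at 200 mg/kg 6 and the 50 mg/kg interaction 2. DESeq2 gave 2 at 50 mg/kg on Day 1 (main 0) and 1 in the TBI interaction. Without hepatocyte-transcript mice 100 mg/kg on Day 1 gave 3 (main 5) and its interaction 2 (main 4). That interaction also gave 2 with filterByExpr and without a low-count filter, and the TBI interaction gave 1 without that filter and with RLE. The joint fit moved 0 of 18 counts by over 1.5 times, but gave 7 for TBI against Day 1 vehicle (main 5), 6 against Day 0 vehicle (main 5) and 4 at 100 mg/kg on Day 1 (main 5). For all genes at 50 mg/kg on Day 0, 3449 genes passed with TMM, 12976 with total counts and 1286 in the joint fit, which also called 207 genes between the irradiated groups (main 0). Apart from these shifts of scale and sample, the cause was not tested.

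With each mouse left out, the number of members that passed ranged from 0 to 1 at 50 mg/kg on Day 0, 3 to 5 at 100 mg/kg on Day 1, 4 to 5 at 200 mg/kg on Day 1, 3 to 6 for TBI against Day 1 vehicle, 4 to 5 against Day 0 vehicle, 6 to 7 for 200 mg/kg TBI against 200 mg/kg Day 1, 2 to 4 between days at 200 mg/kg, 5 to 6 between 100 and 50 mg/kg, and 1 to 1, 2 to 5, 2 to 4 and 1 to 3 in the interactions of day with 50, 100 and 200 mg/kg and of TBI. It was 0 to 0 for the comparisons in which no member passed except 50 mg/kg on Day 0. With 6 mice per group, Klf9 after TBI had an SE of 0.62 to 0.91 on the log2 scale, against 0.15 to 0.18 for Zbtb16, so differences in Klf9 had to be several times larger to pass.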
